A study of Mus musculus with 6 samples.

Results

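The genes described here are 39 genes that mark macrophages, monocytes and dendritic cells, read from the deposited table of 22183 genes by gene symbol, with 1 row for each symbol. They were listed by their known roles in these cells, and no measured value entered the rule, although earlier results of these data were known by then. By role, 13 are general macrophage genes, 8 mark resident macrophages, 7 belong to tissue repair and lipid-handling states, 1 marks monocytes and 10 mark dendritic cells. RNA was sequenced from peritoneal endothelial cells (ECs) of 3 saline mice and 3 PD mice, in 1 library per mouse. All 6 were male wild-type (WT) C57BL/6J mice, aged 8 to 10 weeks at the start, and were injected into the peritoneal cavity every day for 6 weeks with either saline or glucose-based peritoneal dialysis (PD) fluid. The labels state that ECs were isolated from the peritoneum with CD31 magnetic beads, while the methods describe flow sorting, for CD31+ cells without CD45, of digested mesentery. The libraries are of sorted cells in bulk, so that fewer cells of a type and less RNA per cell cannot be told apart.

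Macrophages are phagocytes that live in nearly every tissue. In the peritoneal cavity, large resident macrophages depend on the transcription factor GATA6 and carry the receptor TIM4, while smaller macrophages and many dendritic cells are replaced from blood monocytes. Macrophages of the tissue around vessels carry receptors such as FOLR2 and LYVE1, and macrophages at sites of injury or lipid uptake switch on TREM2, GPNMB and apolipoprotein E. Dendritic cells take up antigen and show it to T cells. The conventional type 1 subset depends on BATF3 and carries XCR1 and CLEC9A, and plasmacytoid dendritic cells produce type I interferon. Both dendritic lineages grow in response to FLT3 ligand, and monocytes and macrophages in response to CSF1 through its receptor CSF1R.

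All 6 libraries held RNA of both the labelled cell type and leukocytes. CD31 (Pecam1, ENSMUSG00000020717) was at 458, 491 and 458 CPM in the saline mice and 519, 504 and 517 CPM in the PD mice, a log2 fold change of 0.13 ± 0.06 (SE, adjusted p = 0.0704) in edgeR's quasi-likelihood test, Benjamini-Hochberg adjusted over all genes. CD45 (Ptprc, ENSMUSG00000026395), the pan-leukocyte protein that the sort was described as excluding, was at 2295, 2519.9 and 2304 CPM in the saline mice and 1405, 1482 and 1531 CPM in the PD mice and fell by 0.69 on the log2 scale (adjusted p = 7.12e-06). CPM are counts divided by library size, with libraries scaled to each other by edgeR's TMM method. Pecam1 had the smallest change of 14 endothelial markers. Of these, 13 were called higher in PD mice, with a median log2 fold change of 0.98 for the list, so Pecam1 alone does not stand for endothelial RNA. Between 21973426 and 26374292 reads were counted per mouse, and 14005 genes passed the filter on low counts.

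The upstream sequences of 2 pairs of genes are shown because the members of each pair are set side by side in the results. The first pair, Chil3 and Trem2, had the largest fold changes of all the members. The 250 bases before the start site that RefSeq gives (build GRCm38.p6) are printed, 5′ to 3′ on the strand of the gene, with any GAGGAA or its reverse complement TTCCTC in capitals. GAGGAA is a core that PU.1, the transcription factor of the myeloid lineage, can bind.
Chil3 (chr3:106167565-106167814, minus strand): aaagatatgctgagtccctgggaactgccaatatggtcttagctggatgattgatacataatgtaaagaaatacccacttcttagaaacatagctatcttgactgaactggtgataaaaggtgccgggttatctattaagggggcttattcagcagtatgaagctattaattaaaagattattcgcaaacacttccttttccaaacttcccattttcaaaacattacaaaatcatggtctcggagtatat
Trem2 (chr17:48346151-48346400, plus strand): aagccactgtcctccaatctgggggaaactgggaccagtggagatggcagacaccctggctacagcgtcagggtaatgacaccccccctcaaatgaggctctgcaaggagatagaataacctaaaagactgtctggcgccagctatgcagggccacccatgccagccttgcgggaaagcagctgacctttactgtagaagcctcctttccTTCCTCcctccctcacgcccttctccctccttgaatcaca
The Trem2 stretch held the motif once, 40 bases before the start, and the Chil3 stretch did not hold these letters. In 33 of the 39 genes, those with an entry in the RefSeq table, the motif was found in 13 (39.39%), against 25.85% of the 27025 genes in that table and 23.25% of its 32851 promoters. The second pair, Lyz2 and Lyz1, are neighbouring lysozyme genes on chromosome 10. For these, 200 bases are printed, ending 50 bases before the RefSeq start, with the longest run that both share, of 14 bases, in capitals.
Lyz2 (chr10:117282323-117282522, minus strand): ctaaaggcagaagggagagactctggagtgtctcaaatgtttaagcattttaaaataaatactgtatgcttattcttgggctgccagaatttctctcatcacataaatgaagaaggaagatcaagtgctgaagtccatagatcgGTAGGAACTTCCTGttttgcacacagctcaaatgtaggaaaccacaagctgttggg
Lyz1 (chr10:117292919-117293118, minus strand): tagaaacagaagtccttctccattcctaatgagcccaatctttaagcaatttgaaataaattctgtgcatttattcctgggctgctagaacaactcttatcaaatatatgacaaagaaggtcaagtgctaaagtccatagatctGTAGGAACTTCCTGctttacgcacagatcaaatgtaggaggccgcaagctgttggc
Over the 250 bases before the start, 200 of 252 aligned positions (79.37%) were identical between the lysozyme genes. A match of letters is not a measured binding site.

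Most of these genes were higher in PD mice relative to total RNA. Of the 38 genes that passed the filter on low counts, 33 were higher in PD mice (19 with libraries scaled to endothelial markers), 1 was lower, and 4 did not pass the threshold of an adjusted p of 0.05 in edgeR's quasi-likelihood test. Among all 14005 genes tested, 31.1% were called higher and 27.8% lower. Of the 38, 21 were higher by at least 2-fold, against 15.4% of all genes. The values of the 3 PD mice lay above those of all 3 saline mice in 34 genes and below in 1, against 34% and 31.6% of all genes. The median log2 fold change of the 38 was 1.40, and that of all genes tested was 0.02. Summed over the 39 genes, the level was 5167 to 5581 CPM in saline mice and 18033 to 19182 CPM in PD mice, or 0.535% and 1.87% of all counts. Lyz2 and Apoe alone supplied 0.279% and 1.28% of all counts.

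**Figure D1:**
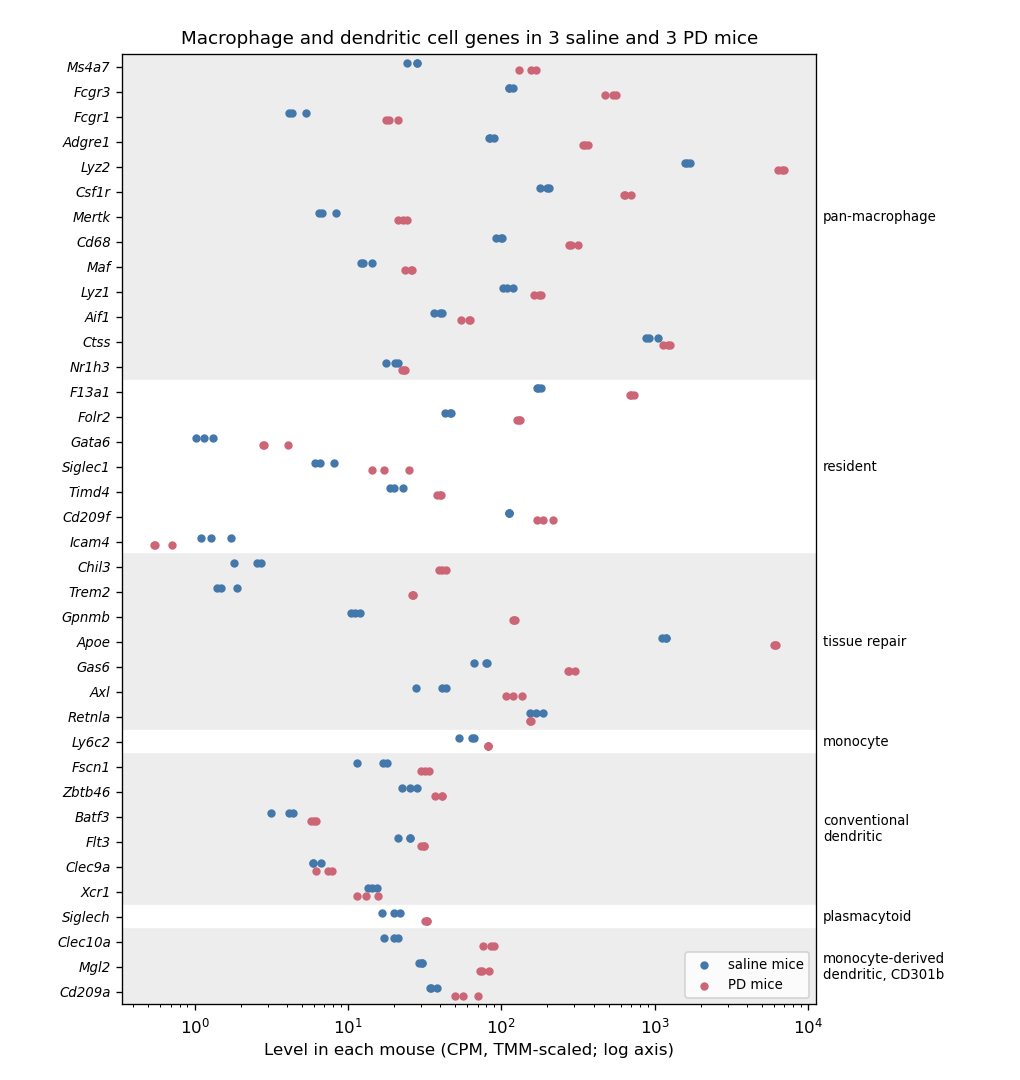
Level of each of the 38 tested genes in each mouse, in CPM after TMM scaling on a log axis, with 1 point for each of the 3 saline mice (blue) and 3 PD mice (red), grouped by role. The PD mice lie above all saline mice in 34 genes and below in Icam4, and the groups overlap in Retnla, Clec9a and Xcr1, all relative to total RNA (scaled to endothelial markers, 19 genes were called higher and 11 lower).

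The direction of part of these changes depends on what the libraries are scaled to. Counts are relative to the other RNA in a library, and 13 of 14 endothelial marker genes were also higher in PD mice after TMM scaling. With libraries scaled to those 14 markers, the median of all genes moved to -0.98 on the log2 scale, 8.05% of all genes were called higher and 72.8% lower, and of the 38 genes 19 were higher and 11 lower. Of the 33 called higher relative to total RNA, 19 stayed higher, 8 no longer passed and 6 were called lower. With libraries scaled to 8 general macrophage genes that are not among the 39, the median of all genes moved to -1.79, and 10 of the 38 were higher and 21 lower, against 2.71% and 87.4% of all genes. Unless another scaling is named, values below are relative to total RNA.

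**Figure D2:**
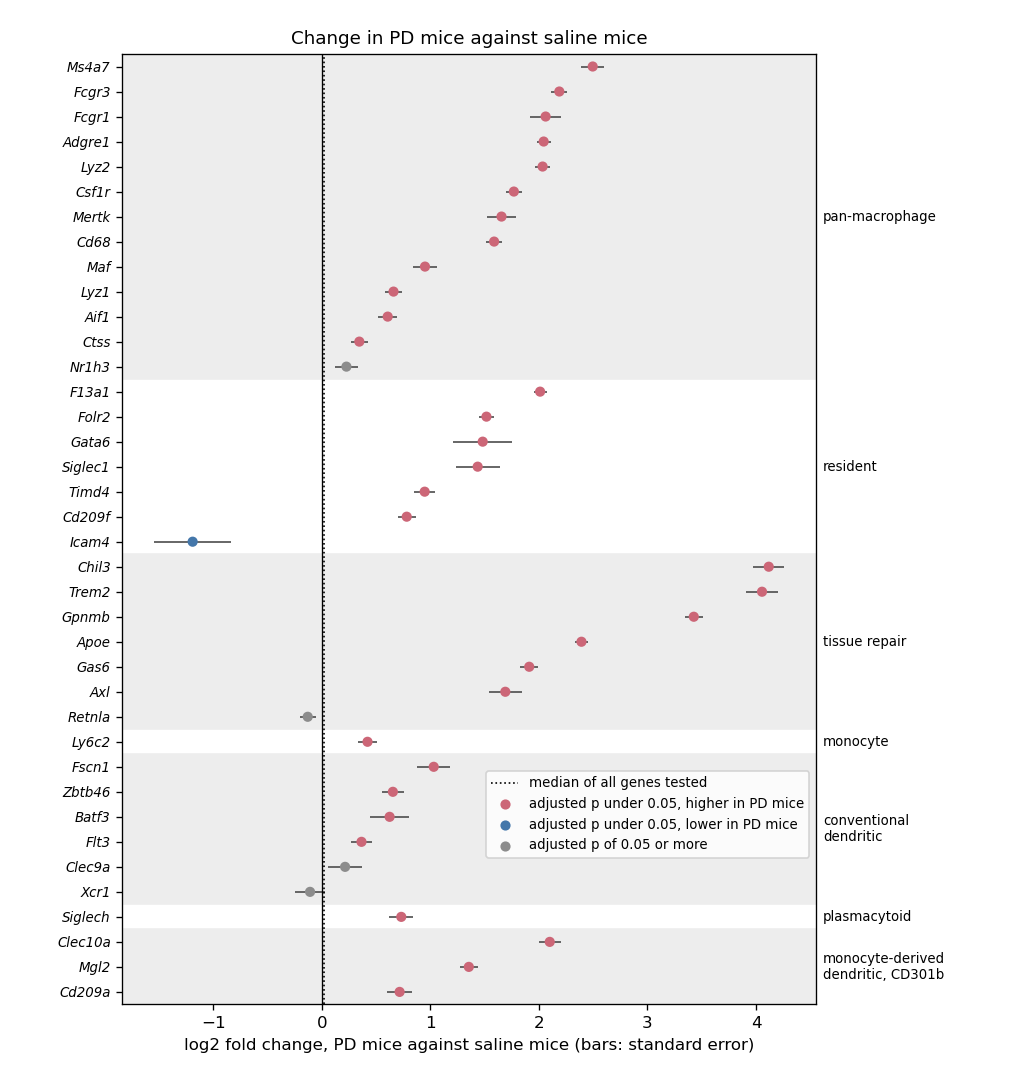
Log2 fold change of each of the 38 genes in PD mice against saline mice relative to total RNA, with standard errors (n = 3 mice per group), coloured by the call of edgeR's quasi-likelihood test. The dotted line is the median of all genes tested, at 0.02, and 14 of the genes right of 0 turn to the left with libraries scaled to endothelial markers, Ctss and Flt3 among them.

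Of the 13 general macrophage genes, 12 were higher in PD mice, with a median log2 fold change of 1.66. With endothelial scaling 8 were higher and 4 lower, with a median of 0.66. Adgre1 (ENSMUSG00000004730), which encodes F4/80, the classical surface marker of mouse macrophages, was at 84.1, 89.7 and 82.8 CPM in the saline mice and 350.3, 339.8 and 368 CPM in the PD mice. The groups were far apart, with a log2 fold change of 2.04 ± 0.06 (SE, adjusted p = 1.03e-09). Csf1r, the receptor for the macrophage growth factor CSF1, was at 203, 179 and 197 CPM in the saline mice and 704, 645 and 626 CPM in the PD mice, a log2 fold change of 1.77 ± 0.07 (SE, adjusted p = 8.17e-09). Part of the Csf1r exons, 15.1%, overlaps Hmgxb3 on the opposite strand, and the sources do not say whether counting used the strand. Cd68, a glycoprotein of the lysosome membrane, was at 91.7, 101 and 98.9 CPM in the saline mice and 276, 285 and 315 CPM in the PD mice, a change of 1.59 ± 0.07 (SE, adjusted p = 1.91e-08).

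The Fc receptors and the phagocytic receptor moved with these. Fcgr3, a low-affinity receptor for antibody, was at 112, 119 and 113 CPM in the saline mice and 477, 532 and 559.6 CPM in the PD mice, a log2 fold change of 2.19 ± 0.07 (SE, adjusted p = 1.67e-09). It shares 9.58% of its 50-base stretches with Fcgr2b. Fcgr1, the high-affinity receptor CD64, was at 4.3, 4.15 and 5.34 CPM in the saline mice and 17.8, 21.3 and 18.5 CPM in the PD mice, a change of 2.06. Mertk, a receptor for the uptake of dead cells, was at 8.4, 6.73 and 6.46 CPM in the saline mice and 24.1, 22.7 and 21.3 CPM in the PD mice, a change of 1.66. Each of the PD mice exceeded every saline mouse in these 3 genes. Ms4a7, a membrane protein of tissue macrophages, had the largest change of this block, at 24.3, 28.3 and 28.2 CPM in the saline mice and 131, 156 and 168 CPM in the PD mice, a 5.64-fold difference and a log2 fold change of 2.50 ± 0.10 (SE, adjusted p = 9.51e-09).

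The remaining general genes changed less, and their direction rests on the scaling. Maf, a transcription factor of mature macrophages, was at 14.3, 12.5 and 12.2 CPM in the saline mice and 23.4, 25.9 and 26.1 CPM in the PD mice. It rose by 0.95 on the log2 scale relative to total RNA and stood at -0.04 relative to endothelial markers. Aif1, which encodes the actin-binding protein IBA1, was at 39.8, 40.8 and 36.4 CPM in the saline mice and 54.3, 61.4 and 62.6 CPM in the PD mice, and its change was 0.61 relative to total RNA and -0.39 relative to endothelial markers. Ctss, the protease cathepsin S of antigen presentation, was at 915, 1054 and 881 CPM in the saline mice and 1138, 1229 and 1254 CPM in the PD mice. B cells express Ctss as well, and its log2 fold change was 0.35 (adjusted p = 0.00277) relative to total RNA and -0.66 relative to endothelial markers. Nr1h3, the sterol-sensing nuclear receptor LXR-alpha, was at 17.7, 21.2 and 20.2 CPM in the saline mice and 23.6, 22.5 and 23.1 CPM in the PD mice. The PD mice lay just above the saline mice, but the change of 0.23 did not pass (adjusted p = 0.0764), and 2 standard errors on either side span 0.02 to 0.43.

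The neighbouring lysozyme genes shown above changed by different amounts. Lyz2 (ENSMUSG00000069516), the lysozyme of macrophages and neutrophils, was at 1633, 1698 and 1571 CPM in the saline mice and 6340.0, 6715 and 7016 CPM in the PD mice, a log2 fold change of 2.03 ± 0.07 (SE, adjusted p = 1.67e-09). Lyz1 (ENSMUSG00000069515), best known from Paneth cells of the intestine, was at 108, 119 and 103 CPM in the saline mice and 162, 177 and 182 CPM in the PD mice, a change of 0.66 ± 0.07 (SE, adjusted p = 2.73e-05) relative to total RNA and -0.34 relative to endothelial markers. The count ratio of Lyz2 to Lyz1 does not depend on scaling. It was 15.1, 14.3 and 15.3 in the saline mice and 39.03, 37.9 and 38.6 in the PD mice, or 14.9 ± 0.54 and 38.5 ± 0.59 (SD, n = 3 mice each). The ratio was thus higher in every PD mouse than in any saline mouse, although no test was run on it. Of the 50-base stretches of Lyz1 transcripts, 16.1% occur in Lyz2 too, so reads could be shared between them. Lyz2 relative to Adgre1, in contrast, was 18.9 to 19.4 in saline mice and 18.1 to 19.8 in PD mice.

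The resident macrophage genes split. Relative to total RNA, 6 of the 7 tested were higher in PD mice (3 with endothelial scaling) and Icam4 was lower, and the median log2 fold change was 1.44. Timd4, which encodes the phosphatidylserine receptor TIM4 of long-lived resident macrophages, was at 18.8, 22.8 and 20.1 CPM in the saline mice and 38.4, 40.1 and 40.3 CPM in the PD mice. The groups did not overlap, and the log2 fold change was 0.95 ± 0.10 (SE, adjusted p = 1.20e-05) relative to total RNA but -0.05 relative to endothelial markers. Gata6, the transcription factor that large peritoneal macrophages need, was at a low level, at 1.02, 1.15 and 1.33 CPM in the saline mice and 4.08, 2.85 and 2.81 CPM in the PD mice. Its log2 fold change was 1.48 ± 0.27 (SE, adjusted p = 7.82e-04), and with endothelial scaling 0.48, which did not pass. Mesothelial cells also express Gata6, and all 10 mesothelial markers were higher in PD mice.

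Icam4, an adhesion protein, was the only one of the 38 genes called lower in PD mice relative to total RNA. It was at 1.29, 1.11 and 1.74 CPM in the saline mice and 0.552, 0.713 and 0.544 CPM in the PD mice, and its log2 fold change was -1.19 ± 0.36 (SE, adjusted p = 0.0143). Its mean level was the lowest of the 38, and the call was lost without PD fluid mouse 1 (adjusted p = 0.0528) or without saline mouse 3 (adjusted p = 0.0634). Every exon base of Icam4 (chr9:21029373-21030595, plus strand, GRCm38) is overlapped by Gm47079 on the opposite strand, so the reads of either gene cannot be told apart unless the strand was used.

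Genes of macrophages that reside in connective tissue and near vessels rose as well, also with endothelial scaling. F13a1, the A subunit of clotting factor XIII, was at 174, 181 and 171 CPM in the saline mice and 690.3, 701 and 729 CPM in the PD mice, a log2 fold change of 2.01 ± 0.06 (SE, adjusted p = 5.32e-10). Folr2, the folate receptor beta of tissue macrophages, was at 46.1, 46.9 and 42.9 CPM in the saline mice and 126, 133 and 129.5 CPM in the PD mice, a change of 1.52 ± 0.07 (SE, adjusted p = 1.98e-08). Of its exon bases, 63.1% are overlapped by Gm10602 on the opposite strand. Siglec1, the sialic acid receptor CD169, was at 8.12, 6.13 and 6.63 CPM in the saline mice and 25, 17.1 and 14.5 CPM in the PD mice. It rose by 1.44, with PD mouse 1 well above the other PD mice.

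Cd209f and Clec4f complete the resident group. Cd209f, a C-type lectin, was at 111, 112 and 112 CPM in the saline mice and 171, 188 and 218 CPM in the PD mice, a log2 fold change of 0.78 relative to total RNA and -0.21 relative to endothelial markers. It shares 29.8% of its 50-base stretches with Cd209g. Clec4f, the lectin of liver Kupffer cells, had 4 counts in PD mouse 1 and 0 in the other 5 mice. It did not pass the filter, and at this depth a count of 0 allows up to 3 counts, or 0.114 to 0.137 CPM.

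The tissue repair genes held the largest changes. Of the 7, 6 were higher in PD mice by at least 2-fold under TMM scaling and were also higher with endothelial scaling, and the median log2 fold change was 2.39. Chil3 (ENSMUSG00000040809), the chitinase-like protein Ym1 of alternatively activated macrophages, was at 2.54, 1.8 and 2.73 CPM in the saline mice and 39, 41.3 and 43.4 CPM in the PD mice. This is a 17.4-fold difference, with a log2 fold change of 4.12 ± 0.14 (SE, adjusted p = 2.59e-09). Trem2 (ENSMUSG00000023992), a lipid-sensing receptor, was at 1.41, 1.89 and 1.49 CPM in the saline mice and 26.5, 26.3 and 26.5 CPM in the PD mice, a 16.6-fold difference and a log2 fold change of 4.06 ± 0.14 (SE, adjusted p = 2.85e-09). In both genes every PD mouse lay far above every saline mouse. Neutrophils also express Chil3, and 11 of the 12 neutrophil markers tested were higher in PD mice, but their part in the Chil3 value was not tested. Chil3 further shares 26.9% of its 50-base stretches with other genes, Chil4 foremost.

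Gpnmb and Apoe followed. Gpnmb, a lysosomal glycoprotein of lipid-laden macrophages, was at 11.9, 11.2 and 10.5 CPM in the saline mice and 122, 120.4 and 119 CPM in the PD mice, a log2 fold change of 3.43 ± 0.08 (SE, adjusted p = 6.88e-11). Apoe, the lipid carrier apolipoprotein E, was at 1188, 1191 and 1111 CPM in the saline mice and 6031, 6092 and 6194 CPM in the PD mice, a change of 2.39 ± 0.06 (SE, adjusted p = 2.11e-10). The 3 PD mice lay close together in both genes. Fibroblasts and smooth muscle cells can express both, and their markers were higher as well, as given below.

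Gas6 and its receptor Axl bridge dying cells to phagocytes. Gas6 was at 79.4, 66.6 and 80.6 CPM in the saline mice and 303, 277 and 272 CPM in the PD mice, a log2 fold change of 1.91 ± 0.08 (SE, adjusted p = 1.50e-08). Axl was at 41.3, 27.8 and 43.4 CPM in the saline mice and 137, 119.5 and 107 CPM in the PD mice, a change of 1.69 ± 0.15 (SE, adjusted p = 4.39e-06). Neither gene is particular to macrophages, since vessel wall cells and fibroblasts express them. In both, PD mouse 1 was the highest.

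Retnla stood apart from the other repair genes. It encodes RELM-alpha, a secreted protein of alternatively activated macrophages, and was at 168, 186 and 154 CPM in the saline mice and 154, 154 and 157 CPM in the PD mice. The groups overlapped, the log2 fold change of -0.13 did not pass (adjusted p = 0.151), and 2 standard errors on either side span -0.28 to 0.02. Relative to endothelial markers it was called lower, at -1.13 on the log2 scale. On that scale the median of all genes was -0.98 and 72.8% of them were called lower, so this call is not particular to Retnla. The count ratio of Chil3 to Retnla was 0.014 ± 0.0041 in saline mice and 0.266 ± 0.011 in PD mice (SD, n = 3 mice each). The ratio of Retnla to Adgre1 went the other way, from 1.98 ± 0.11 to 0.44 ± 0.014. Adgre1 itself was 4.12-fold higher in PD mice relative to total RNA, while the change of Retnla did not pass. Thus Chil3 and Retnla, both textbook markers of alternative activation, did not move together.

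The monocyte gene Ly6c2, which encodes the LY6C antigen of classical monocytes, was at 66.7, 64.5 and 52.6 CPM in the saline mice and 82.2, 82.4 and 81.6 CPM in the PD mice. Its log2 fold change was 0.42 ± 0.09 (SE, adjusted p = 0.00224) relative to total RNA and -0.58 relative to endothelial markers. It shares 14.4% of its 50-base stretches with other genes, mainly Ly6c1, which endothelial cells express.

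Of the 6 conventional dendritic genes, 4 were higher relative to total RNA, with a median log2 fold change of 0.50, and relative to endothelial markers 4 were called lower. That last share is near the 72.8% of all genes called lower on that scale and is not a result about the dendritic genes. Clec9a, a receptor for dead cells on type 1 dendritic cells, was at 5.9, 6.69 and 5.92 CPM in the saline mice and 7.84, 7.42 and 6.16 CPM in the PD mice. Xcr1, the chemokine receptor of the same subset, was at 15.5, 14.2 and 13.5 CPM in the saline mice and 11.4, 13 and 15.8 CPM in the PD mice. The groups overlapped in both, the log2 fold changes of 0.21 and -0.11 did not pass (adjusted p = 0.258 and 0.523), and 2 standard errors on either side span -0.10 to 0.53 for Clec9a and -0.39 to 0.17 for Xcr1. Batf3, the transcription factor of that subset, was at 4.14, 4.38 and 3.15 CPM in the saline mice and 6.03, 5.79 and 6.16 CPM in the PD mice, a change of 0.62 ± 0.18 (SE, adjusted p = 0.0117) relative to total RNA and -0.38 relative to endothelial markers.

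Other genes are shared by conventional dendritic cells. Flt3, the receptor for FLT3 ligand, was at 25.6, 21.1 and 25.2 CPM in the saline mice and 30.0, 31.2 and 31.5 CPM in the PD mice, a log2 fold change of 0.37 relative to total RNA and -0.63 relative to endothelial markers. Zbtb46, a repressor found in conventional dendritic cells and in ECs, was at 25.3, 22.6 and 28 CPM in the saline mice and 41.2, 37.1 and 41.3 CPM in the PD mice, a change of 0.65 on the first scale and -0.34 on the second. The PD mice were above the saline mice in both genes. Fscn1, the actin-bundling protein fascin of mature dendritic cells, which other cell types also express, was at 17, 11.5 and 18.1 CPM in the saline mice and 33.8, 31.6 and 29.9 CPM in the PD mice, a change of 1.03 ± 0.15 (SE, adjusted p = 1.71e-04) relative to total RNA, but it did not pass relative to endothelial markers (0.04, adjusted p = 0.79). Siglech, a receptor of plasmacytoid dendritic cells, was at 16.6, 21.8 and 20.1 CPM in the saline mice and 31.7, 32.6 and 32.6 CPM in the PD mice, a change of 0.73 ± 0.11 (SE, adjusted p = 2.14e-04) relative to total RNA and -0.27 relative to endothelial markers. The count ratio of Xcr1 to Flt3 was 0.534 to 0.676 in saline mice and 0.38 to 0.501 in PD mice.

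The 3 genes of monocyte-derived and CD301b+ dendritic cells were all higher in PD mice relative to total RNA and 2 of them with endothelial scaling, with a median log2 fold change of 1.35. Clec10a (ENSMUSG00000000318), the galactose-binding lectin CD301a, was at 17.2, 21.1 and 20.1 CPM in the saline mice and 75.7, 85.4 and 89.4 CPM in the PD mice, a change of 2.10 ± 0.10 (SE, adjusted p = 2.87e-08). Mgl2 (ENSMUSG00000040950), its paralog CD301b, was at 30.5, 29.2 and 30.2 CPM in the saline mice and 72.2, 74.8 and 83 CPM in the PD mice, a change of 1.35 ± 0.08 (SE, adjusted p = 1.65e-07). Both are also found on macrophages. The count ratio of Clec10a to Mgl2 was 0.565 to 0.724 in saline mice and 1.05 to 1.14 in PD mice. The paralogs share 8.49% of the Clec10a stretches and 12.2% of the Mgl2 stretches of 50 bases, so reads could be split between them. Cd209a, the lectin DC-SIGN, was at 38.3, 34.2 and 35 CPM in the saline mice and 50.1, 56.5 and 70.5 CPM in the PD mice, a change of 0.72 ± 0.12 (SE, adjusted p = 4.09e-04) relative to total RNA and -0.27 relative to endothelial markers.

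To set the roles against general macrophage RNA, the libraries were scaled to 8 general macrophage genes. On this scale a gene that moves with them has a change near 0. The reference genes were the complement genes C1qa, C1qb and C1qc, the lipopolysaccharide co-receptor Cd14, the scavenger receptor Msr1, the metal transporter Slc11a1, the pore-forming protein Mpeg1 and the oxidase subunit Cybb. Their geometric mean was 102 to 103 CPM in saline mice and 358 to 366 CPM in PD mice. Relative to total RNA, 7 of the 8 rose, from 1.32 for Mpeg1 to 3.19 for Cd14 on the log2 scale, and Cybb fell from 556 to 410.2 CPM, a change of -0.44. B cells express Cybb too, and all 11 B cell markers fell, but their part in the Cybb value was not tested. The calls were compared over 4 references, namely all 8 genes, the C1q genes alone, the genes without C1q, and the genes without Cybb. The last was chosen after the values of Cybb were seen.

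Against the 8 genes, 10 of the 38 were higher, 21 were lower and 7 did not pass, and 5 were higher and 19 lower against each of the 4 references. Among all 14005 genes, 2.71% were higher and 87.4% lower against the 8 genes. Against C1q alone, without C1q and without Cybb, 250, 503 and 270 of all genes were higher. On those scales 12815, 11738 and 12722 were lower, so a call of lower is not particular to the 38. How many of all genes kept a call against each of the 4 was not counted. Of the 7 tissue repair genes, 4 were higher, 1 was lower and 2 did not pass. Chil3 was at 2.30 ± 0.16 (SE, adjusted p = 1.01e-07) and Trem2 at 2.24 ± 0.16 (SE, adjusted p = 1.33e-07) on the log2 scale in edgeR's quasi-likelihood test. Gpnmb was at 1.61 ± 0.09 (SE, adjusted p = 1.26e-08) and Apoe at 0.58. Gas6 was at 0.10 and Axl at -0.12, and neither passed (adjusted p = 0.325 and 0.503). The general macrophage gene Ms4a7 was at 0.68. Chil3, Trem2, Gpnmb, Ms4a7 and Apoe, 5 genes in all, were above each reference, with their smallest values at 1.91 for Chil3, 1.85 for Trem2, 1.22 for Gpnmb, 0.28 for Ms4a7 and 0.18 for Apoe.

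Of the 10 dendritic genes, 9 were lower against each of the 4 references. On this scale 87.4% of all genes were lower against the 8 genes, so the share of the dendritic genes is near that of genes at large and is not a result about them. The median change of the 10 was -1.13 against the 8 genes, that of the 6 conventional dendritic genes -1.32 and that of all genes -1.79. Xcr1 was at -1.93 ± 0.13 (SE, adjusted p = 9.52e-08) and Flt3 at -1.45 ± 0.10 (SE, adjusted p = 1.36e-07). Siglech was at -1.08, and the monocyte gene Ly6c2 at -1.39. The tenth dendritic gene, Clec10a, was at 0.28 against the 8 genes but at -0.11 against the C1q genes.

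Of the 7 resident genes tested, 1 was higher, 4 were lower and 2 did not pass against the 8 genes. Among all genes, 2.71% were higher and 87.4% lower on this scale, with a median of -1.79. A call of lower is thus not particular to the resident genes. Timd4 was at -0.87 ± 0.10 (SE, adjusted p = 6.57e-06), Cd209f at -1.04 and Icam4 at -2.99, and these 3 were below each of the 4 references. Folr2 was at -0.30, Siglec1 at -0.37 and Gata6 at -0.32, and their calls differed between references. F13a1 was at 0.20 against the 8 genes and at -0.20 against the C1q genes. The ratio of Timd4 to Adgre1 counts, which needs no scaling, was 0.223 to 0.254 in saline mice and 0.11 to 0.118 in PD mice.

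Among general macrophage genes, 7 of 13 changed their call with the reference. Adgre1 was at 0.23 against the 8 genes and -0.17 against C1q, and Lyz2 at 0.22 and -0.18. Lyz1, Maf, Aif1, Ctss and Nr1h3 were below every reference, Nr1h3 by the most, at -1.59 against the 8 genes. On that scale 87.4% of all genes were lower, and these genes lay above the median of all genes, -1.79. Their calls of lower are thus not particular to them. Retnla, at -1.94 ± 0.07 (SE, adjusted p = 5.68e-10), was the only repair gene below all 4. This value is near the median of all genes on this scale, and relative to total RNA its change of -0.13 did not pass.

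**Figure D3:**
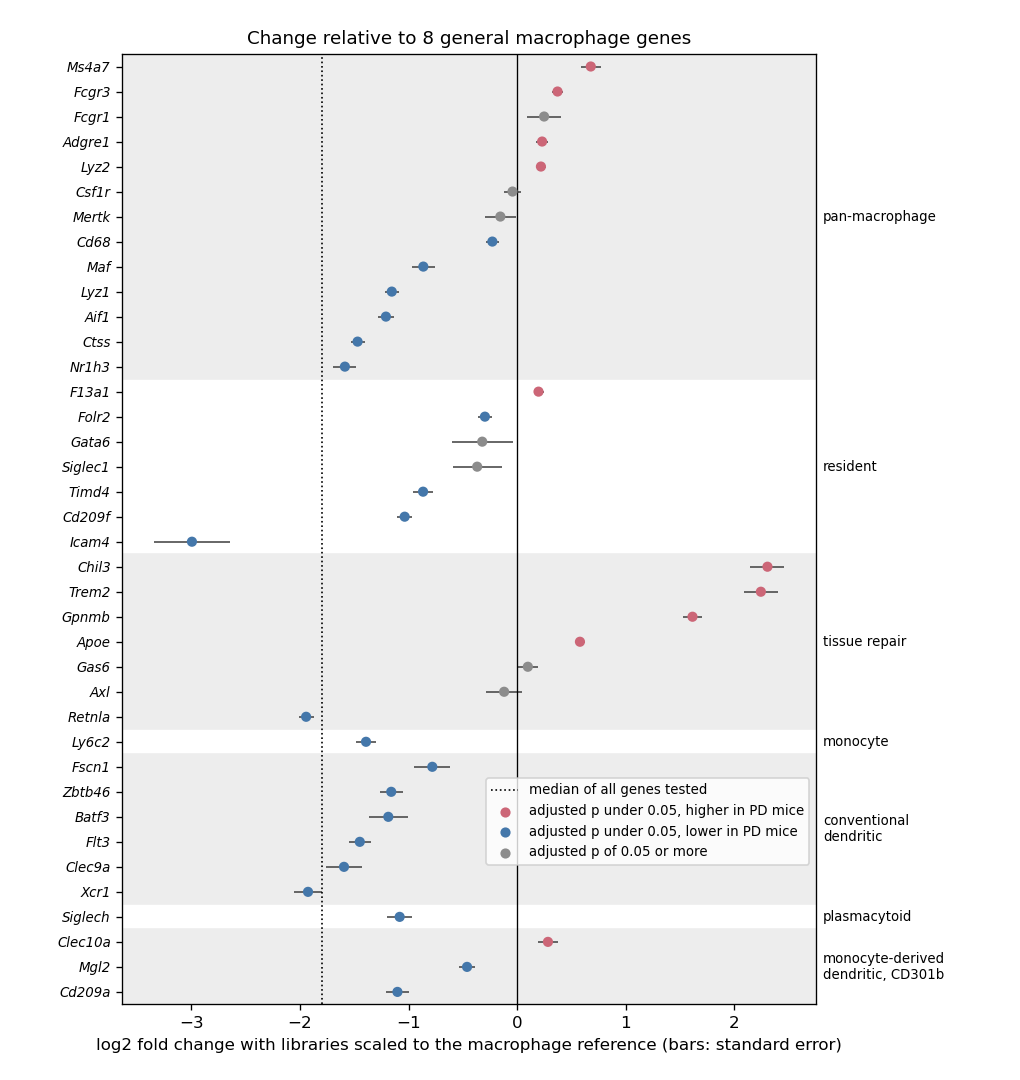
Log2 fold change of the 38 genes in PD mice against saline mice after libraries were scaled to 8 general macrophage genes, with standard errors (n = 3 mice per group) and calls of edgeR's quasi-likelihood test in colour. The dotted line is the median of all genes tested, at -1.79. Chil3, Trem2 and Gpnmb lie furthest to the right and Icam4, Retnla and Xcr1 furthest to the left, against each of the 4 references the first 3 above 0 and the last 3 below, while genes near 0 such as Adgre1, Lyz2 and Clec10a turn sign with the C1q genes as reference.

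The order of levels was compared per transcript length, in FPKM, which divide by transcript length and library size, as the authors deposited it. In saline mice the highest of the 39 was Lyz2, at 1236 ± 37.8 FPKM (SD, n = 3 mice), before Apoe at 1014 ± 35.1, Ctss at 698 ± 61.2 and Retnla at 283 ± 24.4. In PD mice Apoe was first, at 5365 ± 76.5 FPKM, then Lyz2 at 5096 ± 122, Ctss at 893 ± 24.2, Fcgr3 at 389.9 ± 21.4 and Retnla at 260.1 ± 4.32 (SD, n = 3 mice each). The FPKM values of Apoe and Lyz2 did not overlap in either group, so the order of these 2 genes in FPKM switched. In CPM, which do not divide by transcript length, Lyz2 stayed above Apoe in every saline and PD mouse. Trem2 moved from place 35 of 39 to place 23, Chil3 from 34 to 22 and Gpnmb from 30 to 20. Nr1h3 moved down from place 21 to 28 and Xcr1 from 29 to 35 while their own levels did not pass the test relative to total RNA. The dendritic genes stayed in the middle and lower part, with Cd209a at 24.5 and 40.5 FPKM and Clec9a at 2.73 and 3.04 FPKM.

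Other genes of these pathways, taken from lists of known roles, held 145 tested genes, of which 109 were higher and 19 lower relative to total RNA and 60 and 53 with endothelial scaling. Among all genes, 31.1% were higher and 27.8% lower relative to total RNA. Of 12 growth factor and chemokine genes of the CSF and FLT3 axis, 11 were higher (8 with endothelial scaling), led by Csf3 (the neutrophil growth factor G-CSF, log2 fold change 5.02), its receptor Csf3r (2.11) and the monocyte attractant Ccl2 (1.89). Of 20 myeloid transcription factors, 13 were higher and 5 lower relative to total RNA, with Cebpb at 2.33 and Cebpa at 2.30. With endothelial scaling 5 were higher and 13 lower, against 8.05% and 72.8% of all genes. The 5 that were lower relative to total RNA included Irf4 (-0.70), Ikzf1 (-0.50) and Bcl6 (-0.45), which lymphocytes also express.

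Most genes of the lists of macrophage states were higher. Of 19 genes of large peritoneal macrophages, 15 were higher and 1 lower (11 and 3 with endothelial scaling), with the acute-phase gene Saa3 (4.39), the B cell attractant Cxcl13 (4.32) and the complement receptor Vsig4 (3.82) at the top and Bhlhe41 (-0.85) lower. All 15 genes of perivascular LYVE1+ macrophages were higher relative to total RNA and 10 with endothelial scaling, among them the chemokine Ccl8 (5.06), the scavenger receptor Stab1 (2.55) and Lyve1 itself (2.39), a gene lymphatic ECs share. Of 20 lipid-associated genes, 19 were higher relative to total RNA and 14 with endothelial scaling, with osteopontin (Spp1, 3.18), the elastase Mmp12 (3.12) and the apolipoprotein Apoc2 (2.56), and the cholesterol exporter Abcg1 was lower (-1.15).

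Alternative activation and the uptake of dead cells were measured by further genes. Of 15 genes of alternative activation, 13 were higher (8 with endothelial scaling), with Retnlg (3.26), also a neutrophil gene, the mannose receptor Mrc1 (2.18) and the cytokine Il10 (1.80), and the checkpoint ligand Pdcd1lg2 was lower (-0.43). Of 11 tested genes for uptake of dead cells, 7 were higher, such as Stab1, Dock1 (1.15) and Pros1 (0.90, but -0.10 with endothelial scaling), and 2 lower, the receptor Havcr1 (-0.72) and the engulfment adaptor Elmo1 (-0.26). With endothelial scaling 1 of the 11 was higher and 7 were lower, near the 8.05% and 72.8% of all genes, so that these counts are not a result about the uptake genes.

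Further monocyte and dendritic genes were mixed. Of 13 monocyte genes, 10 were higher, including haptoglobin (Hp, 3.47), the integrin Itgam (2.69) and clotting factor F10 (2.67), and 3 were lower, including Ms4a4c (-1.04) and Plac8 (-0.83). Of 20 further conventional dendritic genes, 9 were higher and 5 lower, with Sirpa (1.81), a marker of the type 2 subset that macrophages share, at the top and Ly75 (-0.58), Cd83 (-0.56) and Cd24a (-0.41), which B cells also carry, at the bottom. Of 14 further plasmacytoid genes, 9 were higher and 2 lower, namely Ly6d (-0.94) and Pacsin1 (-0.83). The kallikrein Klk1 (6.54) had the largest rise there and is abundant in the pancreas, whose acinar markers rose too. The median log2 fold changes of these 3 lists were 1.27, 0.28 and 0.54 relative to total RNA and 0.27, -0.73 and -0.46 with endothelial scaling. On the endothelial scale 6, 2 and 1 genes were higher and 5, 13 and 8 lower, against 8.05% and 72.8% of all genes. Relative to total RNA, 31.1% of all genes were called higher and 27.8% lower. The calls of lower are thus not particular to these lists.

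Markers of other cell types moved with the groups. Their part in the values of the 39 genes, and of the genes of the other lists, was not tested. The summed level of 14 endothelial markers was 1700.2 to 1826 CPM in saline mice and 3086 to 3210 CPM in PD mice. All 11 B cell markers fell relative to total RNA, from 7214 to 7575 CPM down to 3326 to 3362 CPM. Of 13 T and NK cell markers 2 were higher and 4 lower, with sums of 2420.0 to 2530 and 2052 to 2247 CPM. The neutrophil markers went from 37.7 to 42.6 CPM up to 501 to 539.8 CPM. Eosinophil markers, of which 5 of 6 were higher and 1 lower, were at 44.3 to 45.0 and 46.4 to 53.7 CPM, mast cell markers, 8 of 10 higher, at 259 to 266 and 399 to 450.2 CPM, and plasma cell markers, 5 of 7 higher and 1 lower, at 1571 to 1677 and 2478 to 2855 CPM. With endothelial scaling 0 plasma cell markers were higher and 5 lower (median -0.43), 1 mast cell marker was higher and 4 lower (median -0.29), 0 T and NK cell markers were higher and 13 lower (median -1.04), and 3 eosinophil markers were higher and 1 lower. On that scale 8.05% of all genes were called higher and 72.8% lower, with a median of -0.98. A call of lower there is thus not particular to these markers. Relative to total RNA, 31.1% of all genes were called higher and 27.8% lower. Relative to total RNA, the median log2 fold change was 4.61 for the neutrophil list, 1.61 for eosinophils, 0.71 for mast cells, 0.57 for plasma cells, -0.04 for T and NK cells and -1.16 for B cells.

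Tissue cells other than ECs were represented too. All 10 mesothelial markers were higher in PD mice, at 31.3 to 36.9 against 218 to 245 CPM in sum. All 10 fibroblast markers were higher, at 332 to 388 against 1397 to 1409 CPM, and all 9 markers of pericytes and smooth muscle, at 281 to 299.7 against 456 to 504 CPM. The 11 acinar markers of the pancreas were near 0 in saline mice, at 2.34 to 5.95 CPM in sum, and at 7629 to 8603 CPM in PD mice. These directions held with endothelial scaling for the acinar and mesothelial lists in full, for 9 of 10 fibroblast markers and for 5 of 9 pericyte and smooth muscle markers.

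**Figure D4:**
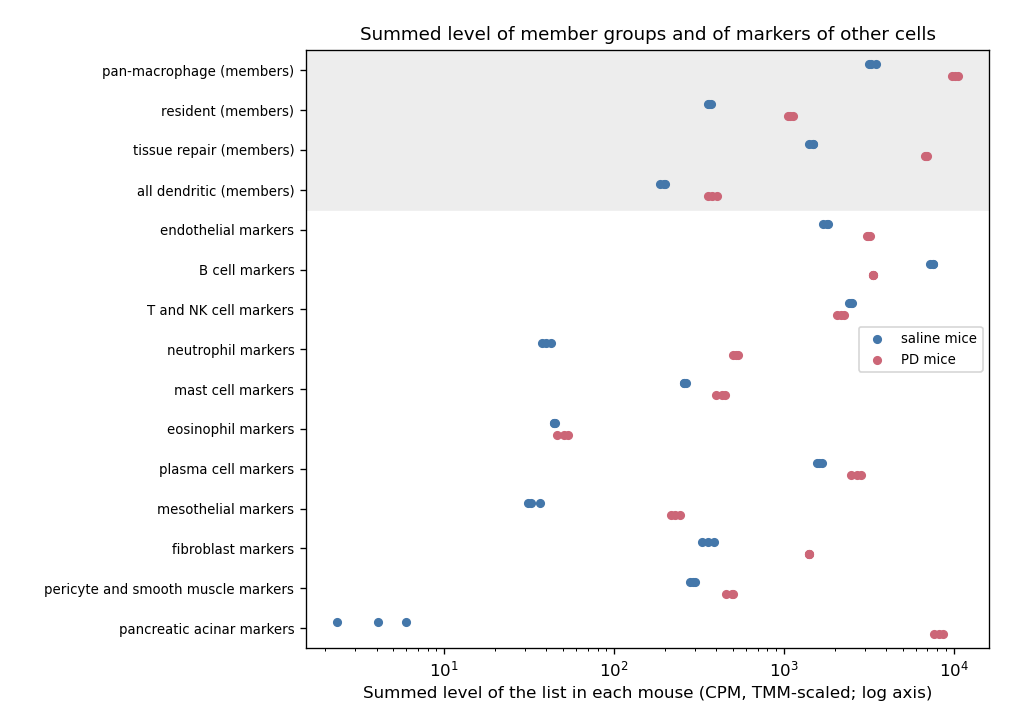
Summed level of 4 groups of the 39 genes and of 11 marker lists of other cell types in each mouse, in CPM after TMM scaling on a log axis, with 1 point per mouse (3 saline mice in blue, 3 PD mice in red). Relative to total RNA the macrophage, dendritic, neutrophil, mesothelial, fibroblast and acinar sums are higher in each PD mouse and the B cell and T and NK cell sums lower. With endothelial scaling the dendritic genes have a median log2 fold change of -0.31, above that of all genes, -0.98.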

How the data were processed

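The authors deposited a table with a read count per gene and mouse, without normalization, and FPKM values that they computed per mouse. The table also holds the authors' mean FPKM, log2 ratio, p-value and FDR, which were not used. The submitters' processing notes name fastp 0.18.0, Bowtie2 2.2.8, HISAT2, StringTie 1.3.1 and RSEM, and the genome build is not given in the sources used here. Positions come from GENCODE M21 (GRCm38), to which 22128 of 22183 identifiers matched, and upstream sequences from RefSeq (GRCm38.p6).

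Counts were tested with edgeR 4.0.16 in R 4.3.3 (filterByExpr, TMM, quasi-likelihood test of PD mice against saline mice without covariates, Benjamini-Hochberg adjustment over 14005 genes, threshold 0.05). The same test was run with libraries scaled to 8 macrophage genes. Alternatives used DESeq2 1.42.0, limma 3.58.1 (voom), other scalings, filters and references, a replicate block and leaving out each mouse. On simulated counts for this comparison with 13961 genes tested, 157 of 198 changed genes were recovered (79.3%), with 14 false calls. The simulation changed few genes, up or down at random, whereas 8246 of 14005 genes were called in the data. Its figures need not hold for these data. Within each group the libraries differed by more than sampling noise. Whether the mice came from separate cages or sorts is not stated, so p-values measure the spread between these samples. Counting limits cover counting error only.

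The genes and lists were chosen with earlier results of these data known. Values were given per mouse for every gene of the 39, and for other lists up to 3 genes in each direction with the largest called change and a mean of at least 10 counts. The symbols Sepp1 and Amy2b of these lists did not match a row. The values of 2 single genes of the other lists are not reported here.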

Additional observations from a re-analysis of the deposited data

How the results depend on the processing

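Under DESeq2, limma-voom, no filter on low counts and scaling by total counts, each of the 38 genes kept its direction and its side of the threshold relative to total RNA. The replicate numbers did not pair the mice, since the deviations of same-numbered mice correlated at 0.10, 0.04 and -0.17 and not every mouse correlated best with its own number. With the replicate number as a block 34 of the 38 genes passed, as without it, while calls over all genes went from 8246 to 7909, and against the macrophage reference 32 passed instead of 31, with Siglec1 at -0.40 gained. Leaving out each mouse in turn gave 33 to 35 genes called, 33 to 34 higher and 0 to 1 lower. Icam4 was lost without PD fluid mouse 1 or saline mouse 3, Nr1h3 was gained without saline mouse 2 (0.28, adjusted p = 0.0468 in edgeR's test) and Retnla without saline mouse 3 (-0.20, adjusted p = 0.0377). Requiring a fold change of 2 as well left 22 genes, 21 of them higher.

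Scaling to endothelial markers left 19 higher and 11 lower, and 14 genes reversed, Lyz1 (-0.34), Maf (-0.0448), Aif1 (-0.39), Ctss (-0.66), Nr1h3 (-0.78), Timd4 (-0.0544), Cd209f (-0.21), Ly6c2 (-0.58), Clec9a (-0.79), Batf3 (-0.38), Flt3 (-0.63), Zbtb46 (-0.34), Siglech (-0.27) and Cd209a (-0.27). This scaling sets the 14 markers, most of which rose relative to total RNA, to no change by construction.

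Against the macrophage reference, leaving out each mouse gave 30 to 32 genes called, 9 to 11 higher and 21 to 22 lower. With the C1q genes as reference 5 genes were higher, and Adgre1 (-0.17), Lyz2 (-0.18), Fcgr1 (-0.15), Fcgr3 (-0.0252), F13a1 (-0.20), Gas6 (-0.30) and Clec10a (-0.11) reversed. A reference without Cybb, chosen after seeing the data, gave 5 higher and 28 lower, and Adgre1 (-0.0926), Lyz2 (-0.10), Fcgr1 (-0.0733), F13a1 (-0.13), Gas6 (-0.22) and Clec10a (-0.0387) reversed. Without the C1q genes, Csf1r (0.20), Cd68 (0.00961), Mertk (0.0830) and Axl (0.12) reversed, as did Csf1r (0.0176) without PD fluid mouse 3 and Axl (0.00526) without saline mouse 3. Over the mice left out in turn, Csf1r ranged from -0.123 to 0.0176 and Axl from -0.298 to 0.00526.

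With 3 mice per group, a bulk sort and 2 accounts of that sort, these libraries give levels of RNA and not numbers of cells. Gata6 and Icam4, at about 1 CPM in saline mice, have the widest errors of the 39 genes. The values of genes that other cell types express, such as Gas6, Axl, Ctss and Chil3, cannot be assigned to a cell type.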
